A study of Mus musculus with 16 samples.

Results

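The miR-130/miR-301 family was measured in mouse dorsal skin with and without the nuclear receptor PPARβ/δ, before and after chronic ultraviolet B (UVB) exposure. Its 4 members on the array, mmu-miR-130a, mmu-miR-130b, mmu-miR-301a and mmu-miR-301b, were taken by name from the 577 miRNAs of the array, and passenger (star) strands were left out. The family was selected on a measured value, the higher miR-301a signal of irradiated wild-type skin. The UV difference in wild-type mice, and the interaction that contains it, are therefore given as descriptions for all members, with no p-value or interval. The contrasts between genotypes reuse the wild-type arrays of that difference, so the choice can shift their values, p-values and intervals too.

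A total of 16 single-colour arrays were hybridised, 4 in each of 4 groups. WT mice were Ppard+/+ and KO mice were Ppard-/-, lacking the gene in the whole body. All were hairless albino females, 8 to 12 weeks old, littermates on the mixed SKH1-C57/Bl6-SV129 background. WT UV and KO UV mice received 70 mJ/cm2 of UVB 3 times a week for 12 weeks and gave lesion-free skin, whereas WT no UV and KO no UV mice were handled alike without irradiation. The study asked which skin miRNAs depend on PPARβ/δ and on UV. The arrays carry miRNAs and no mRNA, so the loss of Ppard was not checked.

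MiRNAs guide the silencing complex to messenger RNAs that pair with the seed, bases 2 to 8 of the mature strand, and members of a family share that seed and so many predicted targets. The miR-130/miR-301 family is known for repressing Pparg, which encodes another receptor of the PPAR family and the master regulator of fat cell formation. MiR-130a is also known from vessel growth, where it represses the homeobox genes Gax and Hoxa5 in endothelial cells. MiR-301a is known for repressing the NF-κB repressing factor Nkrf. In bulk skin, fewer cells of a type and less miRNA per cell cannot be told apart.

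The mature sequences are shown because they define the family and the array miRNAs closest to it. They are written 5′ to 3′ with the seed in capitals, from RefSeq (GRCm38.p6), whose table matched 3 of the 4 members.
miR-130a: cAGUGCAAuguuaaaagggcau
miR-130b: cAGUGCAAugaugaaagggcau
miR-301a: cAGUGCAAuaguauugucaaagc
miR-721: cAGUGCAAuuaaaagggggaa
miR-148a: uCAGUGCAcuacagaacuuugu
miR-19b: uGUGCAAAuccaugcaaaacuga
The first 4 sequences share the seed AGUGCAA, and miR-721 is the only array miRNA with that seed besides the members. MiR-148a and miR-19b stand for families that hold most of the same letters shifted by 1 base. From base 1 at the 5′ end, miR-130a and miR-130b share their first 10 bases and differ at 2 positions, U11A and A13G. The other pairs among the first 4 sequences share 9 bases and then diverge.

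The mature strands lie at chr2:84741116-84741137 on the minus strand (miR-130a), chr16:17124071-17124092 on the minus strand (miR-130b) and chr11:87113054-87113076 on the plus strand (miR-301a). The hairpin genes Mir130b and Mir301b lie 257 bases apart on chromosome 16, both within the span of the gene 2610318N02Rik. Mir301 lies within Ska2 and Mir130a within no other gene of the annotation. On the array each member was read by 20 spots, from 4 probes for miR-301b and 2 for each of the others. The probes covered 18 to 19 bases of miR-130a, 17 to 18 of miR-130b, 20 to 21 of miR-301a and 17 to 20 of miR-301b. Whether the probes of miR-130a and miR-130b also bind the other strand was not tested.

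Values below are normalized signals, that is, the scanner software's background-subtracted signal summed over a miRNA's spots and quantile normalized between arrays. Differences are on a log2 scale after values under 19.4 signal units were raised to that floor, which understates the change of dim miRNAs. Total signal was 170979 to 395200 units per array, and all arrays of irradiated mice were on 1 slide and all others on a 2nd slide. UV and slide therefore cannot be told apart. The mean spread of negative control spots was 9.72 units on the slide of irradiated mice and 4.04 on the other, so signals near the floor were less precise on the former. Each slide held both genotypes, but on the slide of irradiated mice WT filled the 1st row and KO the next, so genotype and row cannot be told apart there. All 7 keratinocyte miRNAs of a marker list were detected on all 16 arrays. So were those on the array from the leukocyte, endothelial, fibroblast, smooth muscle and skeletal muscle lists. Detection alone is therefore only a weak check of the labelled tissue.

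MiR-130a was detected on all 16 arrays, at 13.8 to 14.1 times its own measurement error. Its normalized signal was 551, 656, 551 and 689 in the WT no UV samples and 872, 689, 721 and 638 in KO no UV. After irradiation it was 872, 743, 846 and 894 in WT and 872, 721, 743 and 826 in KO. WT no UV thus held the lowest group mean, 612 ± 71.7 (SD, n = 4), followed by KO no UV at 730 ± 101, KO UV at 790 ± 70.4 and WT UV at 839 ± 66.5. Neighbouring groups in that order overlapped, whereas WT no UV did not overlap WT UV, as for 21.5% of all miRNAs tested. WT no UV, at most 689, also lay under KO UV, at least 721. That pair differs in genotype, UV and slide, and no share over all miRNAs was computed for it, so nothing is read from it.

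MiR-301a was also detected on all 16 arrays, at 2.91 to 10.4 times its error. The WT no UV samples gave 30.9, 43.9, 16.9 and 45.5, the 3rd of them under the floor, and the KO no UV samples 31.6, 52.8, 31.6 and 43.9. The WT UV samples gave 52.0, 63.4, 59.1 and 64.9, and the KO UV samples 56.2, 52.0, 55.4 and 59.1. Group means ran from WT no UV (34.3 ± 13.3, SD, n = 4) over KO no UV (39.98 ± 10.4) and KO UV (55.7 ± 2.91) to WT UV (59.8 ± 5.78). All irradiated WT samples lay above all unirradiated WT samples, as for 13.6% of all miRNAs tested. In KO the ranges met at 52.8 without and 52.0 with UV. Samples spread less within the irradiated groups.

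MiR-130b lay at the limit of detection. Its normalized signal was 23.1, 17.9, 15.4 and 27.1 in WT no UV, where 3 of 4 arrays detected it, and 11.7, 20.3, 12.6 and 16.7 in KO no UV, where 2 did. It was 33.1, 27.7, 30.9 and 28.6 in WT UV, with 4 of 4 arrays detecting it, and 29.6, 30.4, 36.4 and 24.2 in KO UV, with 1. All 8 irradiated samples lay above the floor and 5 of the 8 others under it. The irradiated and unirradiated samples of each genotype did not overlap, as for 21.5% of all miRNAs tested in WT and 20.2% in KO. The mean measurement error was 7.98 units in KO UV and 8.27 in WT UV, against 4.52 in KO no UV and 4.55 in WT no UV, and the mean unnormalized signal was 25.8 in KO UV and 32.5 in WT UV. MiR-130b entered the test only through the WT UV group, since the test required detection by all 4 arrays in some group.

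MiR-301b was detected on 0 of 16 arrays. Its normalized signals lay between -6.39 and 7.64 units, all under the floor, and its unnormalized signals lay between -1.68 and 1.51 times their errors. The signal was therefore not distinguishable from background at this precision, and no fold change is given.

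**Figure D1:**
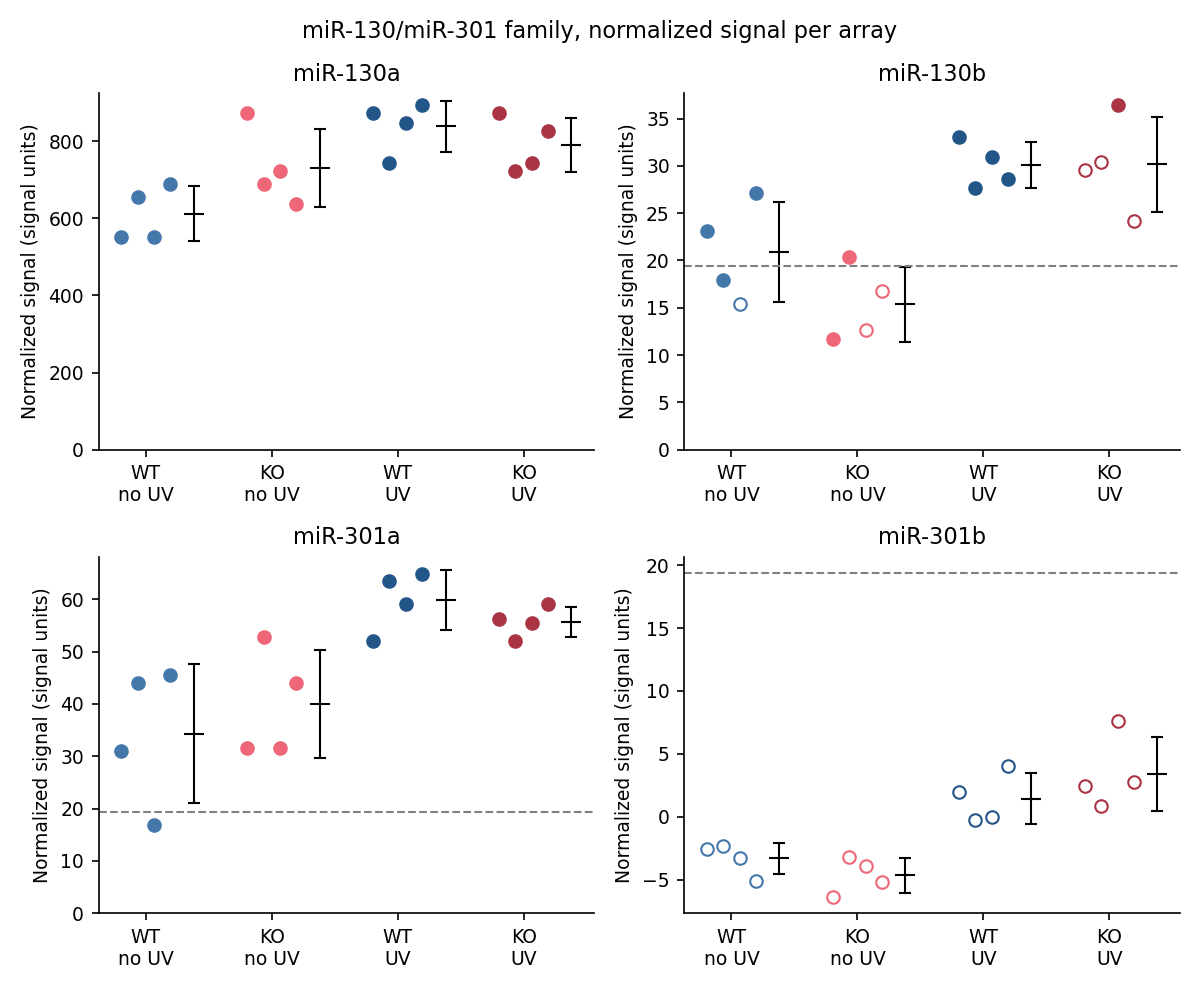
Normalized signal (signal units) of each member on every array, with each group's replicates in numerical order from left to right. Filled points were detected by the scanner software and open points were not, black bars give the mean ± SD (n = 4), and the dashed line is the floor of 19.4 units. The irradiated samples of miR-301a sit at 52.0 to 64.9, and all samples of miR-301b are open points under the floor.

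**Figure D2:**
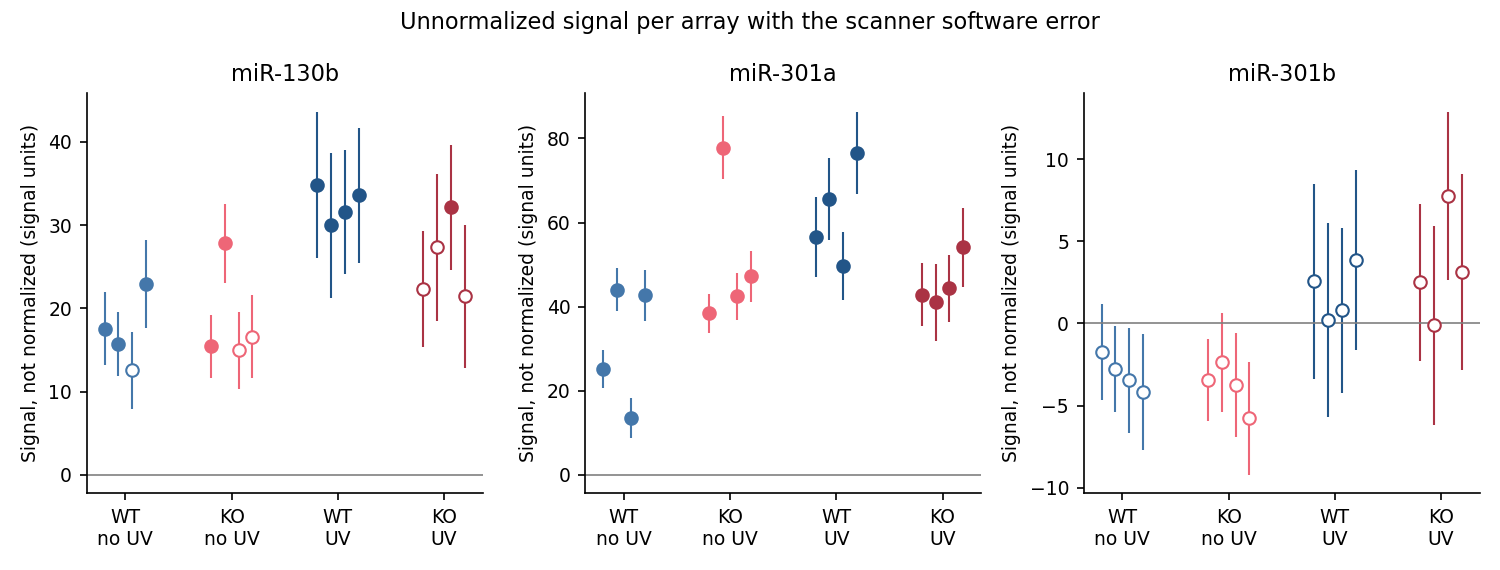
Signal before normalization (signal units) of miR-130b, miR-301a and miR-301b on every array, with bars for the scanner software's own error of that signal. Filled points were detected. Error bars are longer in the irradiated groups, and in these values miR-301a of KO no UV (38.4 to 77.8) and KO UV (41.1 to 54.2) overlap.

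In unirradiated skin no tested member differed past the threshold between KO and WT. MiR-130a, the member with the clearest signal against its error, was higher in KO by 0.25 ± 0.11 (log2, SE), with an adjusted p of 0.288 (limma over 228 miRNAs). Its 95% interval was 0.02 to 0.48 and its unadjusted p was 0.0342. The WT no UV samples also took part in the choice of the family, which can shift the values, intervals and p-values of this contrast. For miR-301a the difference was 0.24 ± 0.24 (adjusted p = 0.715, limma) and for miR-130b it was -0.17 ± 0.12 (adjusted p = 0.527, limma). Of all 228 miRNAs tested, 0% passed the adjusted threshold in this contrast and 15.8% had an unadjusted p under 0.05. That 0% depended on the fit. Without the 11 tested miRNAs at the floor on all arrays, 10 of 217 were called. From the log2 values normalized by the authors, 9 of 228 were called, and in neither setting was a member among them. With no normalization the median of all tested miRNAs was itself 0.52 higher in KO, miR-130a was then 0.79 higher (adjusted p = 0.00762, limma) and miR-130b turned to 0.06 higher. Without the 3rd WT no UV sample the miR-301a difference was -0.02.

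After irradiation 0 of 3 tested members were called between the genotypes by limma, and 0 had an unadjusted p under 0.05, against 2.19% of all miRNAs called. The KO minus WT differences were -0.09 ± 0.11 for miR-130a, -0.01 ± 0.12 for miR-130b and -0.10 ± 0.24 for miR-301a (log2, SE), with adjusted p-values of 0.951, 1 and 0.955 from limma. The 95% intervals were -0.32 to 0.14, -0.27 to 0.26 and -0.62 to 0.42, so for miR-301a the interval of the KO to WT ratio ran from 0.651 to 1.34. MiR-130b entered the test only through WT UV, a group of this comparison, which can shift its difference. The sign of the miR-130b difference changed when any of 3 single irradiated samples was left out, the 1st or 3rd of WT or the 4th of KO, over a range of -0.10 to 0.09 for all samples left out in turn. With the slide row as a covariate the miR-301a difference was 0.12. With no normalization, where the median of all tested miRNAs was -0.25, the differences were -0.41, -0.35 and -0.44.

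In WT skin all 3 measurable members were higher after UV. The difference was 0.85 ± 0.24 (log2, SE) or 1.80-fold for miR-301a, 0.46 ± 0.11 or 1.37-fold for miR-130a and 0.44 ± 0.12 or 1.36-fold for miR-130b. With no normalization, where the median of all tested miRNAs was 0.21 higher, they were 1.04, 0.83 and 0.82. MiR-130b was 0.63 and 0.70 higher by each of its probes alone, and 0.051 with normexp, a background correction whose offset of 50 compresses dim signals. The irradiated and unirradiated samples did not overlap for any of the 3. Over all miRNAs tested, 21.5% had groups that did not overlap in this contrast (13.6% with UV higher) and 16.2% passed the adjusted threshold, which is given as background only since this contrast chose the family. The median difference over all tested miRNAs was 0, with quartiles of -0.20 and 0.20. The 3rd WT no UV sample, under the floor, carried part of the miR-301a difference, which was 0.59 without it.

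In KO skin 1 of 3 tested members, miR-130b, was called higher after UV. Of all miRNAs tested, 29.8% passed the threshold and 18.4% passed it as higher, so 1 of 3 does not set the members apart. That member was detected by only 1 of 4 KO UV arrays, against 2 of 4 KO no UV arrays. It entered the test only through the WT UV group, where its signal was also high, and its call carries that limit. MiR-130b was 0.61 ± 0.12 higher (log2, SE, adjusted p = 0.00498, limma), or 1.52-fold with a 95% interval of 1.27 to 1.83, and KO UV and KO no UV did not overlap, as for 20.2% of miRNAs tested. Since 3 of the 4 KO no UV samples were under the floor, a floor of 1 signal unit gave 0.995. Each of its 2 probes taken alone passed as well, at 0.91 and 1.13. With no normalization the difference was 0.41 and missed the threshold (adjusted p = 0.0579, limma).

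MiR-301a in KO skin was 0.51 ± 0.24 higher after UV and missed the threshold (adjusted p = 0.124, limma), with a 95% interval of -0.01 to 1.03. It passed when the 3rd WT no UV sample was left out of the fit, which lowered the SE to 0.17 (adjusted p = 0.0407, limma). MiR-130a in KO skin differed by 0.12 ± 0.11 (adjusted p = 0.416, limma). The scaling mattered here. With no normalization the median of all tested miRNAs was 0.48 lower in KO UV than in KO no UV, and miR-130a and miR-301a were then 0.37 and 0.13 lower.

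**Figure D3:**
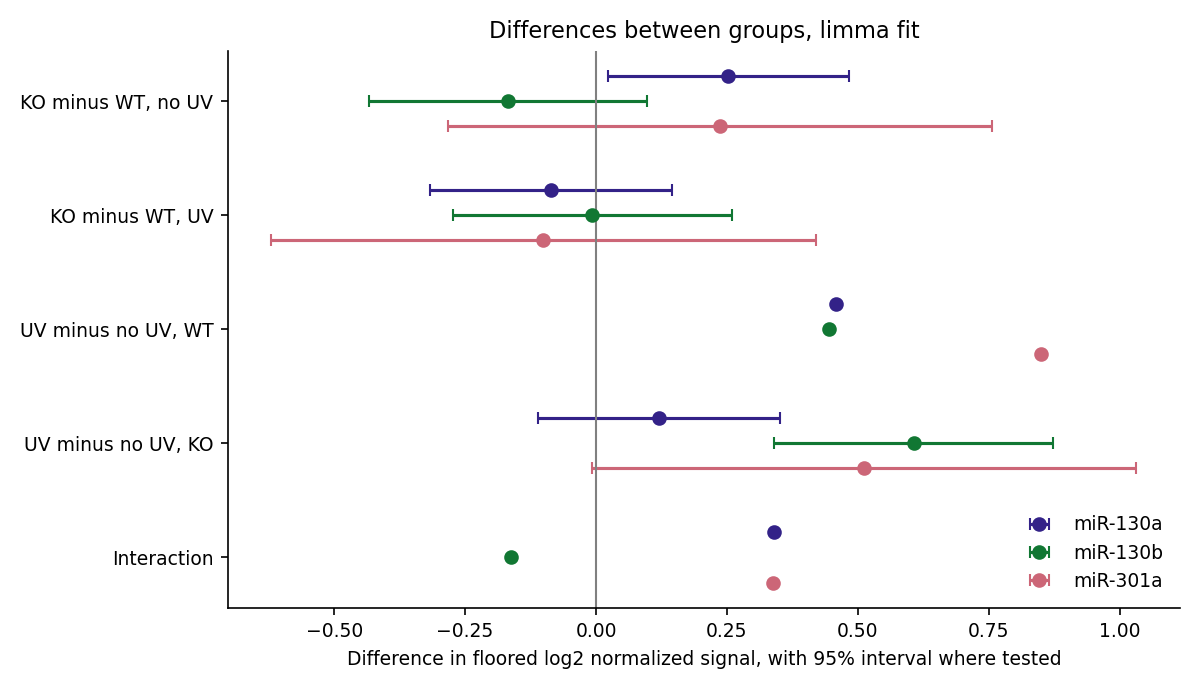
Differences between groups (log2, floored normalized signal) from the limma fit for the 3 members that could be fitted, with 95% intervals. The interaction, the UV difference in WT minus that in KO, and the UV difference in WT have no interval because the latter chose the family. After UV all 3 intervals of KO minus WT include 0.

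The interaction, the UV difference in WT minus that in KO, holds the difference that chose the family. It was 0.34 ± 0.15 for miR-130a, 0.34 ± 0.34 for miR-301a and -0.16 ± 0.17 for miR-130b (log2, SE), and 2.19% of all miRNAs tested passed the adjusted threshold. The miR-301a value was 0.08 without the 3rd WT no UV sample and 0.115 with the slide row as a covariate. With no normalization, where the median interaction over all tested miRNAs was 0.77, miR-130a and miR-301a were at 1.20 and 1.16, and miR-130b changed sign to 0.41.

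For miR-301b, which failed the detection rule, group means were compared in signal units by exact two-sided permutation tests. The mean was -3.33 without and 1.42 with UV in WT, and -4.68 without and 3.40 with UV in KO. The UV difference in KO was 8.08 units, with an exact p of 0.0286, the smallest that 4 against 4 arrays can give, and 0.114 after adjustment over the 4 tests of this miRNA. The genotypes differed by -1.35 units without UV (exact p = 0.229) and 1.98 units after it (exact p = 0.371), which after adjustment were 0.305 and 0.371 by the same permutation tests. The interaction was -3.33 units. It counted among the 4 tests adjusted for, but its p is not given, since it holds the difference that chose the family.

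As a reference for such dim signals, 292 miRNAs were detected on no array. Their UV minus no UV difference in KO had a median of 0.53 units and lay between -5.43 and 6.49 units from the 10th to the 90th percentile, and 11 of them exceeded miR-301b. In WT the corresponding range was -5.42 to 5.92 units, and miR-301b differed by 4.75. MiR-130b, which some arrays detected, differed by 14.8 units in KO after normalization and by 7.09 before it, where miR-301b differed by 7.15.

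MiR-721, which shares the seed but is not counted in the family, had lower group means after UV in both genotypes without passing the test. It was detected on all 16 arrays. Its normalized signal was 181, 965, 721 and 656 in WT no UV and 422, 721, 571 and 388 in KO no UV. After UV it was 193, 279, 250 and 363 in WT and 395, 250, 408 and 408 in KO. The 1st WT no UV sample was as low as the irradiated ones. The UV difference was -1.02 ± 0.43 in WT (adjusted p = 0.116, limma) and -0.51 ± 0.43 in KO (adjusted p = 0.396, limma). Its 4 probes covered 12 to 15 bases, fewer than those of the members.

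Of 7 miRNAs in comparison families, 0 were called by limma in any of the 5 contrasts. Of all miRNAs tested, 0% to 29.8% were called, depending on the contrast. Only miR-19a of the 7 had an unadjusted p under 0.05, in both UV contrasts. MiR-148a, miR-148b and miR-152, whose seed is shifted by 1 base, differed after UV by a median of 0.10 in WT and 0.04 in KO (log2). MiR-27a and miR-27b, which also repress Pparg through another seed, differed by a median of 0.03 in WT and 0.13 in KO. MiR-19a and miR-19b of the cluster that also encodes miR-17, known for driving cell proliferation, differed by 1.12 and 0.20 in WT and by 0.95 and 0.31 in KO. The adjusted p of miR-19a was 0.0606 in WT and 0.0756 in KO (limma).

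**Figure D4:**
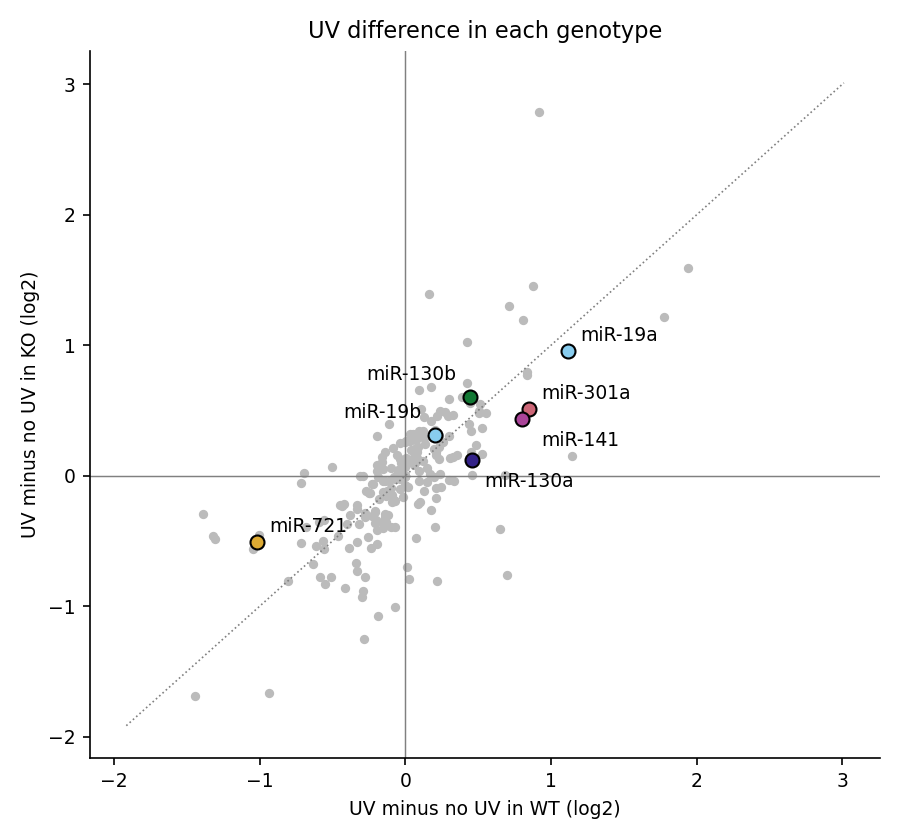
UV minus no UV difference (log2, floored normalized signal) in WT on the horizontal axis and in KO on the vertical axis for the 228 miRNAs tested (grey), with the members, miR-721, miR-19a, miR-19b and miR-141 in colour. The dotted line marks equal differences. The members lie to the upper right of 0, miR-130a at 0.46 and 0.12, and miR-721 lies to the lower left.

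The array miRNAs most like each member were found by the root mean square difference of mean-centred log2 signals over the 16 arrays, among 165 miRNAs detected on all arrays. MiR-130a was most like miR-126-3p, the miRNA typical of endothelium (0.15), followed by miR-17* and miR-101b (both 0.16), where the median over candidates was 0.33. MiR-301a was most like miR-141, an epithelial miRNA of the miR-200 family (0.24), then miR-20b (0.26) and miR-872 (0.27), against a median of 0.51. MiR-130b was most like miR-140 (0.18), miR-20a (0.18) and miR-25 (0.20), against a median of 0.38. Between members the difference was 0.28 for miR-130a with miR-130b, 0.37 for miR-130a with miR-301a and 0.35 for miR-130b with miR-301a. These lay below the candidate medians of the members concerned, except 0.37 against the miR-130a median of 0.33. The 3 miRNAs named for each member were the smallest of 165, so pairs of members cannot be ranked fairly against them. The 16 arrays share slides and normalization, so these are descriptions of patterns.

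Markers of several cell types moved with the same contrasts. The summed signal of the 7 keratinocyte miRNAs was 21539 to 25477 in WT no UV and 26081 to 31708 in WT UV, and 22225 to 27764 in KO no UV against 29320 to 43027 in KO UV. By limma, 4 of the 7 were called higher after UV in WT and 6 in KO. Of all 228 miRNAs tested, 21 were called higher in WT and 42 in KO. In either direction 16.2% and 29.8% were called. The differences of the 7 ran from 0.03 to 0.83 in WT and from -0.03 to 0.80 in KO. The 2 endothelial miRNAs summed to 1599 to 2011 in WT no UV, below the 2114 to 2564 of KO no UV and the 2251 to 2633 of WT UV, and KO UV gave 2244 to 2288. They did not move alike, since after UV in WT miR-126-3p rose by 0.46 and the other, miR-126-5p, differed by -0.24, and in KO they differed by 0.0075 and -0.55. The 4 skeletal muscle miRNAs summed to 40655 to 50330 in KO no UV and 19464 to 24489 in KO UV. All 4 were called lower in KO after UV.

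Of the 5 leukocyte miRNAs, 2 were called lower in WT and 1 in KO after UV. As background for the calls in this paragraph, 37 of all 228 miRNAs were called in WT, 21 of them higher. In KO 68 were called, 42 of them higher. The differences of all 5 were negative, from -1.39 to -0.15 in WT and from -0.56 to -0.04 in KO. Their sums were 4501 to 5929 in WT no UV and 3395 to 4238 in WT UV. The 2 smooth muscle miRNAs were both called lower in KO after UV, and 1 of them in WT. Of 3 fibroblast miRNAs on the array 1 was called higher in KO. Of 3 erythrocyte miRNAs 1 was called lower in KO, while miR-144 of that list was undetected in both irradiated groups. The part of these cell types in the values of the miR-130/miR-301 family was not tested.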

How the data were processed

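Groups and replicate numbers come from the titles of the samples. Each array received 100 ng of total RNA labelled with Cy3, per the labels. The deposited scanner files hold intensity on a linear scale from Agilent Feature Extraction 9.5.3.1, with background subtracted, spots summed per miRNA and a yes or no for detection, per the file headers. A deposited table of log2 values, normalized by the authors with an invariant set and quantiles, served as an alternative. The release of the array named in the methods differs from that in the files, which were followed.

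Summed signals of the 16 arrays were quantile normalized, raised to a floor of 19.4 units and log2 transformed (floor 4.28). The floor was the 5th percentile of the normalized signals that an array detected, as a median across arrays. Testing required detection by all 4 arrays in some group and left 228 miRNAs. A group-means model was fitted to all arrays with limma 3.58.1 in R 4.3.3 (0.802 prior and 12 residual degrees of freedom). A call needed a p under 0.05 after Benjamini-Hochberg adjustment across the 228. The script was checked on simulated data. MiR-301b was compared with exact permutation tests. The number of arrays limits the precision.

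The members and lists were chosen with earlier results of these data known. Named were the members, array miRNAs with the same seed, the lists of related seeds and cell type markers, and for each member the 3 miRNAs with the most similar pattern. Alternatives changed the normalization, the signal, the filter, the floor, the replicate block, the arrays in the fit, the slide row, the threshold, the probes and each array in turn. The methods give 4 animals to a group, while the labels tie no array to an animal, so p-values measure the spread between these samples.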

Additional observations from a re-analysis of the deposited data

Results flagged for a closer look

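MiR-130b in KO no UV had 1 sample far from the others, with a gap of 1 relative to the group's whole range on the floored log2 scale. The 2nd sample was at 20.3 units and the other 3, at 11.7, 12.6 and 16.7, were all raised to the floor of 19.4, so any single value above it gives this gap. No other group of the members was marked.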

How the results depend on the processing

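The UV difference of miR-130b in KO passed the threshold in 14 of 15 other settings and without each of the 16 arrays in turn, with adjusted p-values of 0.00129 to 0.0161 for the latter (limma). All these settings reuse the same arrays, so they add no independent support. The number of members called for UV in KO was 1 to 2 over the arrays left out, and 0 in both KO minus WT contrasts. With no normalization that number was 0 for UV in KO (miR-130b 0.41, miR-130a -0.37 and miR-301a -0.13), where 130 of all 228 miRNAs were called. It was 1 for KO minus WT without UV (miR-130b reversed to 0.058), where 111 of 228 were called. In the interaction, given as a description only, miR-130b then reversed to 0.41. Testing only miRNAs detected on all 16 arrays left out miR-130b, so that 2 members failed the filter and 0 were called for UV in KO. The UV difference of miR-301a in WT was 0.592 to 1.003 over the arrays left out, and 0.11 with normexp, whose offset of 50 compresses dim signals by construction. Differences near 0 changed sign. MiR-130b in the interaction was 0.011 with 75th percentile scaling over all miRNAs. After UV, KO minus WT was 0.12 for miR-301a with the slide row, 0.071 for miR-130b with probe 1 and 0.089 for miR-301a with probe 2, and -0.10 to 0.093 for miR-130b over the arrays left out. KO minus WT of miR-301a without UV was -0.020 to 0.39 over the arrays left out. For miR-301b the same contrast was 0.49, 0.47 and 0.45 units with 75th percentile scaling over detected or all miRNAs and with the invariant set.

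The replicate numbers were not taken as pairs, since not every same-numbered pair had deviations correlated over 0.1. The share was 15 of 24 (median 0.16, -0.35 to 0.38), against 18 of 72 differently numbered pairs (median -0.05). With the number as a replicate block the adjusted p of miR-130b for UV in KO was 0.0149 (limma), and no call of a member changed. With no filter, miR-301b could not be fitted because it lay at the floor on all arrays. Leaving out the 11 tested miRNAs at the floor on all arrays, an alternative chosen after seeing the data, changed no call of a member. Signal over background limits miR-130b and miR-301b.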

Other observations

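MiR-130b*, the passenger strand from the other arm of the miR-130b hairpin, was detected on 0 of 16 arrays, with normalized signals between -3.85 and 2.52 units.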
